A study of Mus musculus with 14 samples.

Results

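The elements described here are the copies of endogenous retroviruses (ERVs) annotated in the mouse genome as RLTR13 or RNERVK23 of the ERVK family. They were selected by name, as every ERVK subfamily whose name starts with RLTR13 or RNERVK23, and the choice fell on these names because of measured values: RLTR13C3 and RNERVK23-int had differed between spermatogonia and spermatocytes in the mutant. For that reason these 2 subfamilies are described below in all contrasts without a test, and so is the change between stages in the mutant for every member, while the other 22 subfamilies were tested between genotypes and between stages of the wild type. The names cover 24 subfamilies, 23 of them RLTR13, with 9583 copies (9538 RLTR13 and 45 RNERVK23-int) among 3725827 annotated copies of transposable elements (TEs), of which 323502 are ERVK. At least 1 read fell on 2256 of the 9583 copies, and at least 30 reads over all libraries fell on 310.

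The values come from polyadenylated RNA of germ cells sorted from mouse testes on a C57Bl6/J background. Groups were spermatogonia (Spg) and spermatocytes (Spc) of animals homozygous for the knockout of the DNA methyltransferase DNMT3C (genotype Dnmt3CKO/KO, here KO) and of wild-type littermates (WT), with 3 KO and 3 WT libraries of Spg and 4 KO and 4 WT libraries of Spc. Spg were sorted at postnatal day 14 as live, β2-microglobulin-negative and Ep-CAM-positive cells, and Spc were sorted on Hoechst staining from animals older than 20 days. KO germ cells are known to arrest in meiotic prophase, so that WT Spc hold later stages than KO Spc, and in Spc the genotype and the make-up of the sort cannot be told apart. In such bulk libraries, fewer cells of a type and less RNA per cell cannot be told apart either. The labels do not say which library came from which animal, so p-values measure the spread between these libraries.

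Long terminal repeats (LTRs) flank the coding part of an ERV and hold its promoter and its polyadenylation signal. RLTR13 subfamilies are such LTRs, mostly found as solitary copies without the coding part, whereas RNERVK23-int is an internal (coding) part. Most ERV promoters are silenced by DNA methylation that is re-established in male fetal germ cells, where the piRNA pathway guides DNMT3L and DNMT3C to young retrotransposons. RLTR13D5 is known from another tissue, the mouse trophoblast, in which many of its copies carry enhancer marks and bind the stem cell factors CDX2, EOMES and ELF5.

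Total counts per library ran from 40555726 to 53323651. Dnmt3c itself had 58 to 116 counts in KO Spg, 53 to 89 in WT Spg, 52 to 57 in KO Spc and 11 to 28 in WT Spc, and was not called in either stage. Its Spc groups did not overlap, with KO the higher, and gene counts do not show which part of the gene was read, so that they are no check of the genotype labels. The summed level of 6 pachytene markers, in counts per 1000000 counts (CPM, scaled by the trimmed mean of M-values), was 113 to 143 in KO Spg, 214 to 1461 in WT Spg, 193 to 459 in KO Spc and 8577 to 15546 in WT Spc, and the highest WT Spg value was that of replicate 2. In Spc, replicates 1 and 4 of each genotype were more alike than any other pair of their group, with a difference 5.82 times counting noise in KO and 3.97 times in WT, against 28.0 to 95.3 times in the other pairs. They were kept as separate libraries, and counts obtained after summing them stand beside the results they touch. The members drew 0.188 to 0.192% of all TE counts in KO Spg, 0.227 to 0.270% in WT Spg, 0.190 to 0.209% in KO Spc and 0.378 to 0.446% in WT Spc, with 95% Wilson intervals of at most 0.0140 percentage points to either side. Scaled to 1000000 counts of the whole library, the order was different, with 68.6 to 104 in KO Spg, 59.9 to 95.1 in WT Spg, 119 to 165 in KO Spc and 74.6 to 130 in WT Spc. The groups of Spg overlapped on this scale, and those of Spc overlapped in 1 library each, KO replicate 2 and WT replicate 3.

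No genome sequence was used here, so LTR sequence could be read only where a reference promoter falls inside a member copy. Of 32851 RefSeq promoters (assembly GRCm38.p6, 250 bases before to 50 bases after the start), 3 lay wholly inside a member copy on its strand. They are printed because they show what RLTR13 sequence looks like, and the promoter after them because it belongs to the gene that holds the RNERVK23-int copy with nearly all reads of that subfamily. Each is written 5′ to 3′, and capitals mark the only match to 4 searched motifs, TATAAA (core promoter), AATAAA (polyadenylation signal), TGCGCA (core of the NRF1 motif) and TGACGTCA (the CREB1 site), on either strand. Their coordinates are chr1:177271756-177272055 (+ strand, inside RLTR13C3_dup19), chr14:45391483-45391782 (+, inside RLTR13B2_dup254), chr13:23010999-23011298 (+, inside RLTR13D5_dup612) and chr17:35000697-35000996 (- strand).
Gm36904: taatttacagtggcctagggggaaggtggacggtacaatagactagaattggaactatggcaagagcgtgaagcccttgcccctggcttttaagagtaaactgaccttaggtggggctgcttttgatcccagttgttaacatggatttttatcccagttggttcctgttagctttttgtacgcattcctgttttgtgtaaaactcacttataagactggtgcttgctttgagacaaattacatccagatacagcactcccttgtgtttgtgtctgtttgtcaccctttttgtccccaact
Gm41143: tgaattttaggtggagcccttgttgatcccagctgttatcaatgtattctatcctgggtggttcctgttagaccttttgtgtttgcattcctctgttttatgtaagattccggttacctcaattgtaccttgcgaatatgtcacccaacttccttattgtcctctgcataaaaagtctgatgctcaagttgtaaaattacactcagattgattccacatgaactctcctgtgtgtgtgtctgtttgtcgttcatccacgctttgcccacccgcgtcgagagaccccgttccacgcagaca
Vmn1r213: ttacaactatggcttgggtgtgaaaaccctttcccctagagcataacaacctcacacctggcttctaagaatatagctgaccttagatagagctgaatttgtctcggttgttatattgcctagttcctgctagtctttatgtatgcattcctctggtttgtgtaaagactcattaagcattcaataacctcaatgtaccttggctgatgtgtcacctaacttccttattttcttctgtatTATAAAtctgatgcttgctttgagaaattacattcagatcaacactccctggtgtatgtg
D17H6S56E-5: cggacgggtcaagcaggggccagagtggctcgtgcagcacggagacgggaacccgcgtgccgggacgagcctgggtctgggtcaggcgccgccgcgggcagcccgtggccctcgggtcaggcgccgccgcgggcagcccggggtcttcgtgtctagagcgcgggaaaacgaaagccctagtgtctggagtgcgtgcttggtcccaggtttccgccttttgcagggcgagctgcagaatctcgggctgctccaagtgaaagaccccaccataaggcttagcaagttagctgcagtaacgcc
The 3 LTR promoters held 3, 9 and 1 CG dinucleotides in this order, where the median of all promoters was 7, and that of D17H6S56E-5 held 29, more than 87.1% of promoters. TATAAA is found in 13.6% of all promoters, AATAAA in 19.6%, TGCGCA in 7.76% and TGACGTCA in 1.79%, and a match is a description of these letters only. RLTR13C3_dup19 lies within the bounds RefSeq gives for the noncoding gene Gm36904 (chr1:177257681-177370748), so that the start used for this promoter is an internal one. The copy had 26 reads in KO Spg, 30 in WT Spg, 25 in KO Spc and 1 in WT Spc. RLTR13B2_dup254 had 35 reads over all libraries, and RLTR13D5_dup612, with a start of the vomeronasal receptor gene Vmn1r213, had none.

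RLTR13C3 was higher in KO than in WT libraries of both stages, and the distance was larger in Spc. Its counts were 112, 148 and 106 in KO Spg and 40, 54 and 53 in WT Spg. In Spc they were 541, 262, 422 and 579 in KO and 17, 7, 22 and 12 in WT. KO and WT libraries did not overlap in either stage. The log2 fold change of KO over WT was 1.19 (SE 0.33) in Spg and 4.40 (SE 0.49) in Spc, which are 2.29-fold and 21.2-fold, and the difference between the stages was 3.16 (SE 0.57). Both genotypes contributed to that difference: from Spg to Spc the level changed by a log2 of 2.05 in KO and of -1.11 in WT. These are the values the choice rests on and are given as a description.

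RNERVK23-int showed a like pattern with a smaller distance in Spg. Its counts were 258, 230 and 215 in KO Spg and 196, 128 and 203 in WT Spg, and every KO library lay above every WT library. In Spc, KO counts were 1078, 276, 329 and 884, and WT counts were 24, 19, 48 and 22. KO replicates 1 and 4, the alike pair, were the high ones. The log2 fold change was 0.32 (SE 0.27) in Spg and 3.99 (SE 0.58) in Spc, and from Spg to Spc it was 1.64 in KO and -1.98 in WT.

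**Figure D1:**
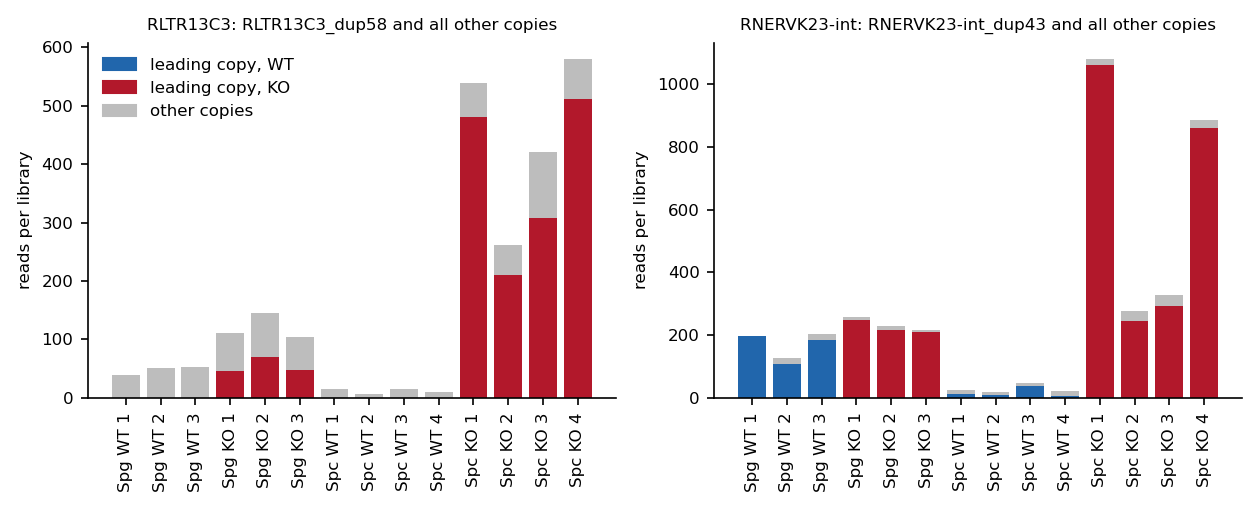
Reads per library (vertical axis) on RLTR13C3 (left) and RNERVK23-int (right) in 14 libraries, with the copy that held most reads in colour (blue WT, red KO) and all other copies of the subfamily in grey. RLTR13C3_dup58 is at 0 in all 7 WT libraries and reaches 211 to 512 reads in KO Spc, and RNERVK23-int_dup43 has 109 to 196 reads in WT Spg and 6 to 37 in WT Spc.

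In KO Spc the RLTR13C3 reads came mostly from 1 of its 538 copies. RLTR13C3_dup58, an LTR of 1035 bp at chr3:121055746-121056780 (GRCm38, + strand), lies between genes, with no GENCODE gene within 5000 bp. It held 45.4% of the RLTR13C3 reads in KO Spg and 84.0% in KO Spc. Its reads were 46, 70 and 48 in KO Spg and 481, 211, 307 and 512 in KO Spc, and 0 in each of the 7 WT libraries. A count of 0 allows up to 3 reads per library, and against that floor the copy was at least 17.3-fold higher in KO Spg and at least 82.9-fold higher in KO Spc. Its reads per 1000000 reads (RPM, scaled as the CPM) were 0.957 ± 0.241 (SD, n = 3) in KO Spg and 7.45 ± 3.17 (SD, n = 4) in KO Spc. Without this copy, RLTR13C3 kept 65, 75 and 57 reads in KO Spg against 40, 52 and 53 in WT Spg, and 57, 51, 113 and 67 in KO Spc against 15, 6, 15 and 10 in WT Spc. In RPM these other copies were at 1.01 to 1.32 in KO Spg and 0.692 to 1.03 in WT Spg, which overlap, and at 0.914 to 2.15 in KO Spc and 0.181 to 0.463 in WT Spc, which do not.

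Repeats next to RLTR13C3_dup58 on the same strand had reads in the same libraries. The L1 element L1Md_A_dup3088, which ends 1189 bp upstream of the copy, had 56 reads in KO Spg, 676 in KO Spc and 0 in WT. L1Md_A_dup3087, next to it and further upstream, had 57 and 610 in KO and 1 in WT Spc. Between L1 and LTR lies RLTR16_dup266, 64 bp from the copy, with 96 reads in KO Spg, 994 in KO Spc and 0 in WT. The 4 repeats follow each other on 1 strand, with reads in KO and 0 or 1 read in WT. L1Md_A is a young L1 subfamily with its own promoter at the 5′ end. Where these RNAs start was not measured.

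**Figure D2:**
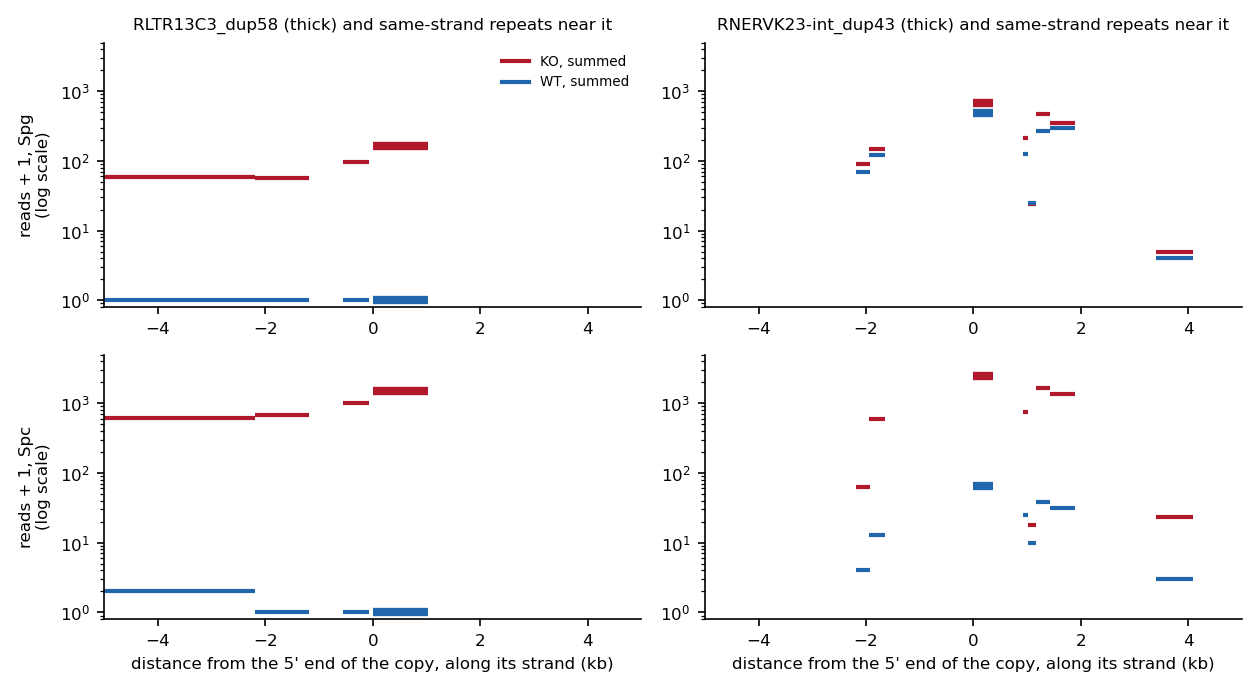
Reads plus 1 summed over the libraries of a group (vertical axis, log scale; red KO, blue WT) on the leading copies (thick bars at 0) and on repeats of the same strand with at least 30 reads around them, in Spg (top) and Spc (bottom), by distance in kb from the 5′ end of the copy along its strand (horizontal axis). Left, RLTR13C3_dup58 with L1Md_A and RLTR16 upstream, at 0 or 1 read in WT; right, RNERVK23-int_dup43, where the neighbours have reads in both genotypes of Spg and are at 2 to 37 reads in WT Spc.

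RNERVK23-int was read from 1 copy to a still greater extent. RNERVK23-int_dup43, 369 bp at chr17:34998194-34998562 (- strand), held 95.7% of the reads of the subfamily in KO Spg and in KO Spc and 55.8% in WT Spc. It had 248, 215 and 210 reads in KO Spg and 196, 109 and 184 in WT Spg. In Spc it had 1060, 245, 292 and 860 reads in KO and 12, 8, 37 and 6 in WT, so that WT Spc were the low group among the 4. In RPM this was 3.92 ± 0.285 (SD, n = 3) and 2.97 ± 0.693 (n = 3) in KO and WT Spg, and 12.2 ± 8.53 (n = 4) and 0.427 ± 0.314 (n = 4) in KO and WT Spc. All other copies together had 110 reads in KO Spc and 50 in WT Spc, and in RPM these groups overlapped.

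That copy lies inside a gene. RefSeq places the protein-coding gene D17H6S56E-5 on the same strand at chr17:34996678-35000774, with the promoter printed above, while GENCODE M21 has no gene there and the count tables hold no row of that name. Other repeats of that strand in or at the end of the gene had reads in the same groups. RLTR30D_RN_dup54 had 477 reads in KO Spg, 269 in WT Spg, 1679 in KO Spc and 37 in WT Spc, and RLTR11A_dup2406 had 348, 300, 1342 and 30 in the same order. Vars, the gene of valyl-tRNA synthetase, which lies 2425 bp away on the opposite strand, was not called (log2 fold change 0.05 in Spg and 0.11 in Spc, edgeR adjusted p = 0.740 in Spc). How much of the subfamily value is RNA of that gene was not tested.

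Genes of Leydig cells, the steroid-producing cells between the tubules, were high in the same KO Spc libraries as the 2 leading copies. Insl3, a Leydig hormone, had 2976, 425, 625 and 2440 counts in KO Spc replicates 1 to 4 and 66 to 127 in WT Spc, and Cyp17a1, a steroid enzyme, had 4315, 666, 608 and 3394 and 114 to 251. In Spg the same genes were near 0, with 0 to 39 counts of Insl3 in all 6 libraries. Markers of Sertoli cells, another somatic type, were not low there, with sums of 336 to 1194 CPM in KO Spg and 251 to 917 in WT Spg. In Spg, RNERVK23-int_dup43 had 109 to 248 reads and RLTR13C3_dup58 had 46 to 70 reads in KO. The part of somatic cells in the Spg and Spc values was not tested. Without KO replicate 1 the log2 fold change of RNERVK23-int in Spc was 3.63, and without replicate 4 it was 3.78. For RLTR13C3 these were 4.31 and 4.23.

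The TE subfamilies whose levels ran most like the leading 2 over the 14 libraries were found by Pearson correlation of log2 CPM among 553 subfamilies, as a description, since the libraries share genotype and stage. For RLTR13C3 they were RLTR10-int (r = 0.976), RLTR10F (0.975), Lx (0.966), L1_Mm (0.963) and L1Md_A (0.963), and L1Md_A has a copy 1189 bp from the leading LTR. For RNERVK23-int they were RLTR30D_RN (0.978), MuLV-int (0.953), IAPEY4_I-int (0.910), RLTR10B2 (0.904) and IAPEY4_LTR (0.898). RLTR30D_RN has copies within the same gene as RNERVK23-int_dup43, so that pair shares a locus. For comparison, the log2 fold changes of KO over WT in Spg and in Spc were 1.01 and 4.37 for RLTR10B2, 2.30 and 4.52 for MMERVK10C-int, 3.03 and 3.60 for RLTR10C, and 3.66 and 3.73 for IAPEz-int, a family of intracisternal A particles.

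In Spg, none of the other RLTR13 subfamilies was called between the genotypes. Of 22, RLTR13D was not tested because its counts were low, and of the 21 tested 0 passed an adjusted p under 0.01 (edgeR quasi-likelihood test), and 0 had an unadjusted p under 0.05. Among all genes and TE subfamilies 0.0741% were called, and among TE subfamilies alone 0.760%, so that a count of 0 is near the background. DESeq2's Wald test also called 0, with 2 members at an unadjusted p under 0.05. Log2 fold changes ran from -1.07 (RLTR13B2) to 1.32 (RLTR13D4), 12 above and 9 below 0, with a median of 0.06, where all features had a median of 0.02 and TE subfamilies one of -0.03. RLTR13D, with 17, 27 and 8 counts in KO and 0, 1 and 6 in WT, was the only one of the 22 with KO above WT in every library. Among the 21 tested members there were 0 such, beside 5.54% of the TE subfamilies tested. RLTR13D5 had 104, 175 and 79 counts in KO and 58, 72 and 121 in WT, and these groups overlapped.

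**Figure D3:**
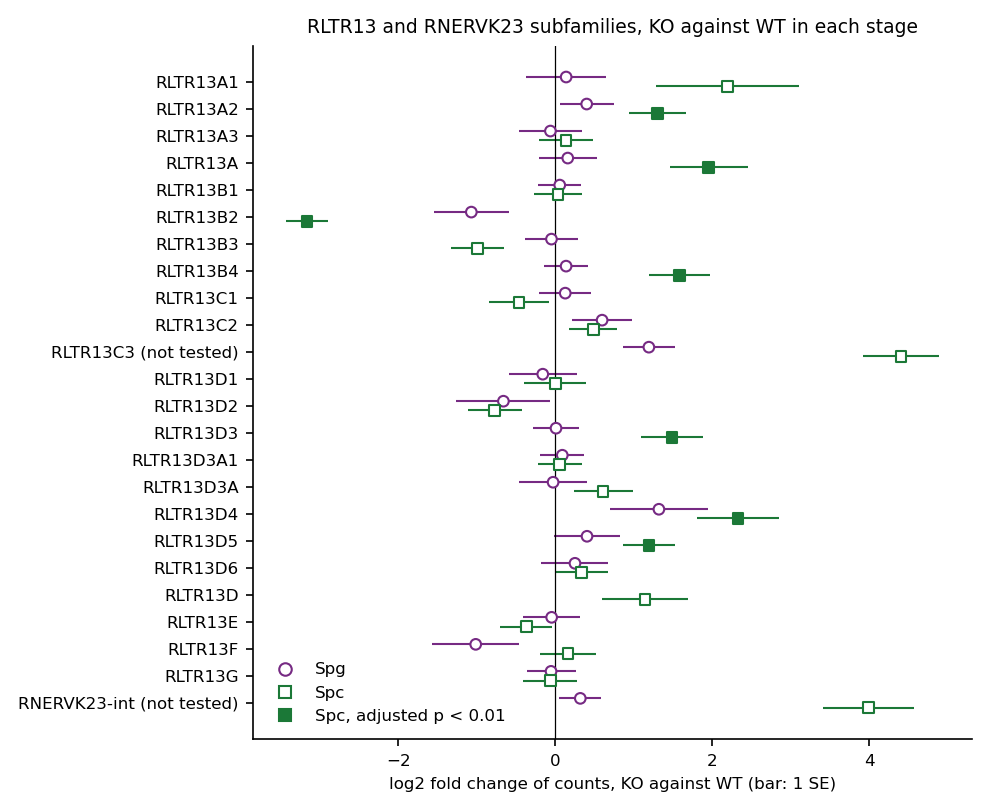
Log2 fold change of counts, KO over WT (horizontal axis), with bars of 1 SE, of the 24 subfamilies (vertical axis) in Spg (circles) and Spc (squares), where filled symbols passed an adjusted p under 0.01 and the 2 subfamilies marked as not tested were chosen on their values. No Spg symbol is filled, 6 subfamilies are filled above 0 in Spc, and RLTR13B2 is filled below 0 at -3.16.

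In Spc, 6 of the 22 subfamilies rose in KO and 1 fell. RLTR13A, RLTR13A2, RLTR13B4, RLTR13D3, RLTR13D4 and RLTR13D5 rose, with log2 fold changes between 1.19 (RLTR13D5) and 2.33 (RLTR13D4) and edgeR adjusted p between 0.00265 and 0.00927. RLTR13B2 fell, with a log2 fold change of -3.16 (SE 0.27), or 8.96-fold (edgeR adjusted p = 9.93e-06). The 6 are 27.3% of the members, where 27.4% of all features and 11.7% of TE subfamilies rose, and the single fall is 4.55%, where 30.1% and 14% fell. The median log2 fold change of the 22 was 0.25, of all features 0.11 and of TE subfamilies 0.10. KO lay wholly above WT for 7 members, or 31.8% beside 22.3% of TE subfamilies, and wholly below for RLTR13B2 and RLTR13B3, or 9.09% beside 23.5%. These counts use CPM scaled within Spc. Scaled over all 14 libraries, RLTR13A1 overlapped, with 0.876 CPM in KO replicate 4 and 0.886 in WT replicate 3, which leaves 6.

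The counts behind these calls were moderate. RLTR13D4 had 31, 38, 36 and 41 counts in KO Spc and 2, 2, 12 and 4 in WT Spc. RLTR13A had 255, 270, 239 and 193 in KO and 21, 51, 93 and 13 in WT, and WT replicate 3 was the highest of its group in both. RLTR13B4 had 703, 328, 636 and 822 counts in KO and 136, 117, 232 and 96 in WT. RLTR13D5, the trophoblast enhancer LTR, had 234, 206, 241 and 289 in KO against 66, 64, 114 and 49 in WT, a 2.29-fold difference. RLTR13A2 had 461, 381, 509 and 460 against 134, 66, 208 and 96, and RLTR13D3 had 160, 172, 191 and 186 against 48, 24, 77 and 26. No KO library of these 6 overlapped with the WT range. RLTR13B2 was at 211, 174, 228 and 220 in KO and at 1246, 1350, 1320 and 1053 in WT. RLTR13A1, at 50, 61, 118 and 43 in KO and 2, 0, 37 and 5 in WT, had a log2 fold change of 2.19 (SE 0.91) and did not pass (adjusted p = 0.0522 by edgeR).

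The fall of RLTR13B2 was called whichever library was left out, while the number of calls in all depended on single libraries. It was 2, 4, 3 and 2 without KO replicates 1 to 4 and 1, 2, 8 and 1 without WT replicates 1 to 4, against 7 with all libraries. With the alike replicates 1 and 4 summed, it was 1, that of RLTR13B2.

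In the WT, 6 of the 22 subfamilies rose from Spg to Spc and 0 were called lower. RLTR13B2 rose by a log2 of 2.97 (SE 0.39, edgeR adjusted p = 3.54e-05), and its counts went from 194, 397 and 159 in Spg to 1053 to 1350 in Spc. RLTR13C1 rose by 2.01 (SE 0.39, adjusted p = 5e-04, edgeR), RLTR13D2 by 1.68, RLTR13E by 1.33 and RLTR13C2 by 1.11, and RLTR13D by 2.98 from 0, 1 and 6 counts to 5 to 17. Among all features 28.9% rose, and among TE subfamilies 22.7%, and the 6 members are 27.3%. The median log2 change of all 22 was 0.74, beside 0.06 for all features and 0.42 for TE subfamilies. With 1 library left out the count was 3, 3 and 2 for KO Spg, 2, 5 and 3 for WT Spg, 3, 4, 3 and 3 for KO Spc, and 4, 4, 6 and 3 for WT Spc, and RLTR13B2 and RLTR13C1 were called each time. With Spc replicates 1 and 4 summed it was 3, RLTR13B2, RLTR13C1 and RLTR13E. These counts hold RLTR13A in the other direction without KO Spg replicate 1 or 2, any 1 KO Spc library or WT Spc replicate 3, and RLTR13A1 without the last. RLTR13A was also called lower with no filter on low counts, with library totals, and with DESeq2 (its Wald test, or its size factors in edgeR). With all libraries RLTR13A had a log2 change of -1.46 (SE 0.47, edgeR adjusted p = 0.0143), with 168 to 194 counts in WT Spg and 13 to 93 in WT Spc, and did not pass. Stage, age and sort differ together in this comparison and cannot be told apart.

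From KO Spg to KO Spc, given as a description, 20 of the 22 were above 0 and 2 below, with a median log2 change of 0.94, where TE subfamilies had one of 0.50. Each KO Spc library lay above each KO Spg library for 11 of 22, or 50.0%, beside 19.4% of TE subfamilies. Between the WT stages it was also 11 of 22, with 1 wholly below, so that this count is not particular to KO. RLTR13B4 had the largest change in KO, 1.95, and RLTR13A1 and RLTR13B3 were the ones below 0, at -0.13 and -0.12. The difference of the KO effect between the stages ran from -2.16 for RLTR13B2 to 1.99 for RLTR13A1.

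Few copies carried the reads of these subfamilies. In KO Spg 1013 of 9583 copies had a read, in WT Spg 827, in KO Spc 1491 and in WT Spc 920. The 10 copies with most reads held 23.5% of all member reads in KO Spg, 24.6% in WT Spg, 34.5% in KO Spc and 43.8% in WT Spc, and 50, 42, 35 and 15 copies were needed to reach 50% of the reads. Of all copies 77.0% lie between GENCODE genes, and these held 60.4% of reads in KO Spg, 57.7% in WT Spg, 68.1% in KO Spc and 63.7% in WT Spc. Copies in introns on the strand of the gene are 6.87% of all and held 13.7 to 24.2% of reads. The polyadenylated RNA was counted by strand. Reads that match several copies were divided between them by the authors' counting, so that values of near-identical copies are uncertain.

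Single copies of the 22 tested subfamilies were compared between genotypes with limma on log2(TPM + 0.1), where TPM is transcripts per 1000000, scaled over TE copies alone. In Spg 0 of 294 copies were called, beside 0.00911% of all TE copies tested. The reads per copy could be recovered from the TPM values, and an edgeR test of these, added after the data were seen, called 7 of 72 copies in Spg, 3 higher and 4 lower in KO. These are 4.17% and 5.56%, beside 13.6% and 0.425% of all copies tested. The 3 higher ones were RLTR13A3_dup182, RLTR13B2_dup159 and RLTR13C2_dup566, each at 0 in WT Spg, and the 4 lower ones RLTR13B2_dup280, RLTR13B2_dup281, RLTR13E_dup274 and RLTR13G_dup803. They are named because there are few of them, after their values were seen. The pachytene marker sum was lower in KO Spg too (113 to 143 CPM, against 214 to 1461 in WT Spg), and its part in the 4 lower copies was not tested.

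In Spc limma called 68 of 332 copies, 34 higher and 34 lower in KO. Each direction is 10.2%, beside 7.17% of all TE copies higher and 4.06% lower. TEs drew 5.74 to 8.67% of all counts in KO Spc and 1.77 to 2.93% in WT Spc. A copy at the same share of the whole library would thus stand lower in KO on a scale of TE copies alone. On this scale, in log2(TPM + 0.1), the median of all copies was 1.39, so that copies low in KO stand further from the rest than those high in KO. The edgeR test of reads called 56 of 92, with 31 higher, or 33.7% beside 47.9%, and 25 lower, or 27.2% beside 17.5%. Without single libraries limma called 45, 68, 41 and 44 copies (KO replicates 1 to 4) and 36, 41, 59 and 33 (WT replicates 1 to 4). With replicates 1 and 4 averaged it called 25, of them 7 higher and 18 lower, so that the even split did not hold. With the replicate block it called 7 higher and 16 lower.

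**Figure D4:**
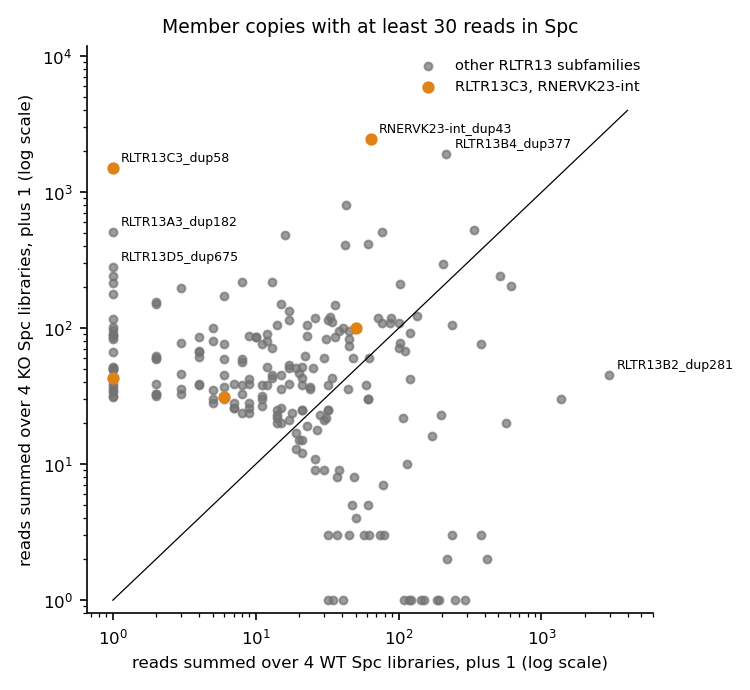
Reads of 218 member copies with at least 30 reads in Spc, summed over 4 WT libraries (horizontal axis) and 4 KO libraries (vertical axis), each plus 1 and on a log scale, with equality as the line, and copies of RLTR13C3 and RNERVK23-int in orange. A column of 26 copies stands at 0 reads in WT and a row of 12 at 0 reads in KO, and RLTR13B2_dup281 has the most reads in WT, 2948 against 44 in KO.

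Among the copies with the smallest p in Spc, 2 were higher in KO. RLTR13A3_dup182 (chr10:106403081-106403768, + strand, between genes) had 22, 18 and 16 reads in KO Spg, 141, 59, 124 and 185 in KO Spc and 0 in every WT library, at least 27.9-fold higher in Spc (limma log2 difference 7.42, adjusted p = 2.5e-04). With WT at 0 the size of this log2 difference depended on the setting, from 4.18 to 9.76 under the alternatives. RLTR13E_dup92 (chr3:28520689-28521125, + strand) lies in an intron of Tnik, a kinase gene, on its strand. It had 18, 14 and 9 reads in KO Spg, 0, 0 and 1 in WT Spg, 54, 24, 58 and 78 in KO Spc and 0 in WT Spc. Tnik itself rose in KO Spc by a log2 of 2.07 (SE 0.56, edgeR adjusted p = 0.00753). Both LTRs follow an L1Md_T element on the same strand, RLTR13A3_dup182 at 56 bp and RLTR13E_dup92 at 5 bp. L1Md_T_dup16432, before the first, had 59 reads in KO Spg, 413 in KO Spc and 0 in WT.

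The other 8 were lower in KO Spc, and 4 of them lie in a gene, or within 5000 bp of one, that was also lower (Adam5, Thegl, Gm10683 and Mir683-1), where 30.1% of all genes and TE subfamilies were lower. These copies were chosen for their small p, and no test was made of that count. RLTR13B2_dup136 (chr8:24738342-24739169, - strand) lies in an intron of Adam5, a sperm membrane gene, and had 45, 90, 83 and 31 reads in WT Spc and 0 in KO, where Adam5 fell by 8.71 on the log2 scale (adjusted p = 7.17e-05 by edgeR). RLTR13C1_dup103, in an intron of Thegl (chr5:77050513-77051465, + strand), had 88, 155, 93 and 80 reads in WT Spc and 1, 0, 0 and 0 in KO, and Thegl fell by 7.27. RLTR13D5_dup275 (chr8:37090342-37090501, - strand), 33 bp from Gm10683, had 38, 37, 20 and 26 reads in WT Spc and 0 in KO. It adjoins ERVB4_1B-I_MM-int_dup537, the internal part of another ERV, which had 1808 reads in WT Spc and 2 in KO Spc. RLTR13G_dup803 (chr17:27288674-27288928, - strand) lies among fragments of ETn elements and had 38, 70, 156 and 27 reads in WT Spc, 21, 83 and 38 in WT Spg, and 0 in all 7 KO libraries. RLTR13C1_dup219 (chr13:50541712-50542538, 2088 bp from Mir683-1) had 379 reads in WT Spc and 2 in KO, and RLTR13D2_dup185 (chr11:5702248-5703149) 192 and 0. Mrps24, 834 bp from the latter on the other strand, was not called (log2 fold change 1.06, edgeR adjusted p = 0.0578).

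The fall of RLTR13B2 came mainly from 2 neighbouring copies. RLTR13B2_dup281 (chr16:57257771-57258207) and RLTR13B2_dup280 (chr16:57257280-57257708), neighbours on the - strand, had 750, 773, 754 and 671 and 363, 382, 357 and 276 reads in WT Spc. In KO Spc they had 12, 8, 20 and 4 and 7, 7, 4 and 11. The limma log2 differences were -7.14 (adjusted p = 4.39e-05) and -6.48 (adjusted p = 7.55e-05). In WT Spg, RLTR13B2_dup281 had 87, 155 and 32 reads, and its highest value was that of replicate 2, the library with the highest pachytene marker sum.

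Upstream of this pair on the same strand, 7932 bp away, ends the gene Tmem30c (chr16:57266139-57292865), which is known for its expression in testis. Tmem30c had 6413, 6085, 5112 and 5266 counts in WT Spc and 43, 11, 60 and 52 in KO Spc (log2 fold change -7.70, edgeR adjusted p = 4.63e-06). In WT Spg it had 164, 1160 and 50 counts, again highest in replicate 2, and in KO Spg 24, 16 and 13. Repeats of the same strand between gene and LTR followed it, among them MLT1L_dup1372 with 172 reads in WT Spg, 1 in KO Spg, 1722 in WT Spc and 24 in KO Spc. The pachytene marker sum moved with these values, and its part in them was not tested.

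**Figure D5:**
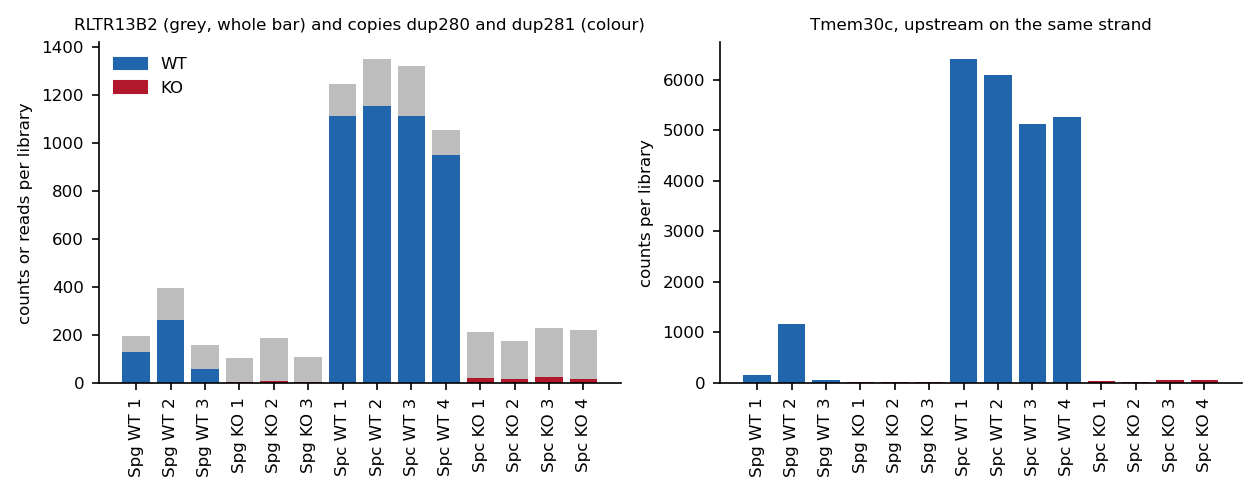
Left, counts of RLTR13B2 per library (whole bars, grey) with the reads of its copies dup280 and dup281 in colour (blue WT, red KO); right, counts of the gene Tmem30c per library. Both are high in the 4 WT Spc libraries, with 1053 to 1350 and 5112 to 6413 counts, and next highest in WT Spg replicate 2.

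Copies of the subfamilies that rose in KO Spc differed in how far 1 copy carried the value. RLTR13B4_dup377 (chr16:48887884-48888736, - strand, between genes) held 77.5% of RLTR13B4 reads in KO Spc. It had 547, 242, 478 and 645 reads in KO Spc and 35, 32, 135 and 12 in WT Spc, but 109, 103 and 81 in KO Spg and 117, 57 and 65 in WT Spg, so that the Spg groups overlapped (limma log2 difference in Spc 2.67, adjusted p = 0.0122, not called). Without it RLTR13B4 was at 2.99, 1.47, 2.94 and 3.46 RPM in KO Spc and at 3.09, 2.47, 2.25 and 2.85 in WT Spc, and the groups overlapped. The called rise of RLTR13B4 was thus carried by a copy that limma did not call and edgeR on reads did (adjusted p = 0.000902). RLTR13A2_dup33 (chr5:123545540-123546496, + strand), against the direction of the gene Vps33a that holds it, had 204, 150, 243 and 207 reads in KO Spc and 2, 4, 33 and 3 in WT Spc, and was called (limma adjusted p = 0.00455). It held 45.3% of RLTR13A2 reads in KO Spc, and without it RLTR13A2 was at 4.01 to 5.01 RPM in KO Spc and 1.81 to 3.98 in WT Spc. It adjoins ETnERV3-int_dup110, which had 1298 reads in KO Spc and 95 in WT Spc. RLTR13A_dup27 held 44.6% of RLTR13A reads in KO Spc, with 100, 117, 125 and 74 reads there and 3, 12, 45 and 0 in WT Spc, and was not called by limma (adjusted p = 0.069).

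RLTR13D5_dup675 (chr15:52144780-52145781, + strand) had 95, 26, 49 and 112 reads in KO Spc and 0 in WT Spc, or 29.6% of RLTR13D5 reads in KO Spc. It sits within fragments of an L1_Mus4 element, 1 bp from each, and the fragment before it had 741 reads in KO Spc and 6 in WT Spc. The reads of RLTR13D5 in KO Spc were spread over 83 copies. RLTR13B2_dup159 went against its subfamily. It had 32, 19 and 34 reads in KO Spg, 0 in WT Spg, 22, 62, 55 and 34 in KO Spc and 1, 1, 3 and 0 in WT Spc (limma log2 difference in Spc 4.10, adjusted p = 0.00751).

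Of the member copies with at least 30 reads in a stage, 5 of 146 in Spg (3.42%) and 26 of 218 in Spc (11.9%) had 0 reads in every WT library, where 12.5% and 21.9% of ERVK copies did. Without the 2 chosen subfamilies these were 2.88% and 11.3%. Copies with 0 reads in every KO library were 4 in Spg (2.74%) and 12 in Spc (5.50%), beside 1.19% and 5.58% of ERVK copies. The 26 copies without WT reads in Spc belong to 13 subfamilies. Their position was then set against L1 elements of the young subfamilies L1Md_A, L1Md_T and L1Md_Gf, a feature looked for only after L1 had been seen beside RLTR13C3_dup58. Such an L1 on the same strand and within 5000 bp upstream was annotated for 8 of the 26 (30.8%) and for 2 of the 192 (1.04%) copies with WT reads, where ERVK copies gave 186 of 1564 (11.9%) and 151 of 5567 (2.71%). The first count includes RLTR13C3_dup58 itself, and without that copy it was 7 of 25 (28.0%). In Spg it was 3 of 5 against 2 of 141, and 2 of 4 without RLTR13C3_dup58, where ERVK copies gave 51 of 651 (7.83%) and 104 of 4557 (2.28%). Copies at 0 in WT passed the minimum of 30 reads through KO reads alone. Copies next to each other share reads and transcripts, so these shares carry no test.

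Genes that act on such elements were read from lists. Of 15 genes of ERVK silencing in male germ cells, 0 were called in Spg. In Spc 3 were higher in KO, the methyltransferases Dnmt3a (log2 fold change 2.84) and Dnmt3b (1.97) and the piRNA pathway gene Tex15 (2.54), and 4 were lower, among them Mael (-3.31), another piRNA pathway gene, and Trim28 (-1.49), the KRAB zinc finger corepressor. Of all features 27.4% were higher and 30.1% lower, so that 3 and 4 of 15 are not above the background. Of the 5 trophoblast factors that bind RLTR13D5 or are partners of these, 1, Tfap2c, was higher in KO Spc (31, 95, 76 and 44 counts in KO, 0, 3, 14 and 1 in WT, log2 fold change 3.26). Of the others 1 was not called there and 3, Cdx2, Elf5 and Eomes, were not tested. With 27.4% of all features higher, this single call says nothing about the list. In Spg 3 were not called and 2, Cdx2 and Elf5, were not tested. Of the methylation-sensitive factors Nrf1 and Creb1, Creb1 was higher in KO Spc (0.80) and Nrf1 was not called (0.47, edgeR adjusted p = 0.106).

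Marker lists of cell types moved with the Spc comparison. Of 6 spermatogonial markers 5 were higher in KO Spc (summed level 352 to 890 CPM in KO, 33.7 to 226 in WT), as were 4 of 6 early meiotic markers (757 to 1216 and 504 to 919). Of 6 pachytene markers 5 were lower, and all 6 spermatid markers were (2.35 to 8.79 CPM in KO, 52.0 to 1161 in WT). Somatic markers were also higher in KO Spc, all 5 of Leydig cells (53.4 to 318 CPM in KO, 13.9 to 29.5 in WT), 3 of 4 peritubular (16.9 to 168 and 3.55 to 10.3), all 5 of macrophages (19.8 to 88.2 and 3.79 to 4.91) and 1 of 6 Sertoli (248 to 914 and 109 to 429). In Spg 0 markers of these 8 lists were called, some of them untested for low counts. None of the somatic markers listed was at 0 in a KO Spc library, and the part of these lists in the Spc values of the RLTR13 and RNERVK23 elements was not tested.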

How the data were processed

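Sorted Spg and Spc of KO and WT mice were profiled by stranded poly(A) RNA-seq (10 ng of RNA, 13 cycles of PCR). According to the methods and the submitters' processing notes, reads were trimmed with cutadapt 4.0 and aligned with STAR 2.7.3a to GRCm38, with up to 100 alignments kept per read. The counts deposited by the authors were made with TEtranscripts 2.2.3, per GENCODE M25 gene and TE subfamily, and are not normalised. The TPM values deposited by the authors were made from counts of TElocal 1.1.1 per single TE copy, and sum to 1000000 over TE copies alone. Columns with the authors' own fold changes and p-values (DESeq2 1.44.0) were not used. One Spg sample of each genotype that the authors left out for RNA quality was not analysed here. Groups came from the sample labels.

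Counts were tested per stage with edgeR 4.0.16 (R 4.3.3; filterByExpr, TMM, quasi-likelihood test, two-sided, Benjamini-Hochberg over all 21580 features tested in Spg and 22848 in Spc, adjusted p under 0.01). The WT stages were compared in 1 fit of all 14 libraries. For single copies limma 3.58.1 was run on log2(TPM + 0.1), keeping those whose TPM averaged 0.5 or more in the stage, a scale that understates changes of low copies. TPM times length was a whole multiple of 1 unit for 100% of values in each library (tolerance 0.01), so that reads were recovered and tested with edgeR, an alternative chosen after seeing the data. DESeq2 1.42.0, other scalings, filters, pseudocounts, a replicate block, single libraries left out and replicates 1 and 4 combined served as alternatives. The main tests used no pairs, and same-numbered libraries were treated as pairs in the replicate block alone. In Spg same-numbered KO and WT libraries had correlations of 0.676, 0.179 and 0.249 in their deviations, which do not establish pairs. KO 2 and WT 3, of different numbers, correlated at 0.316. Intervals and floors (3 reads per library) cover counting error only. The scripts for these tests were checked on simulated data.

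The members, gene lists, markers and naming rules were chosen with earlier results of these data known. Named copies were up to 10 called per stage with the smallest p and no overlap of the groups, the copies with the highest TPM of called or chosen subfamilies, and genes within 5000 bp. Others named are few or stand beside these and were picked after their values were seen. Positions are of GRCm38, genes of GENCODE M21 and RefSeq. Motifs were searched in RefSeq promoters only. Python 3.11.15, NumPy 2.4.6, pandas 2.3.3, SciPy 1.17.1 and matplotlib 3.10.9 were used.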

Additional observations from a re-analysis of the deposited data

Results flagged for a closer look

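Of 48 groups of 4 Spc libraries (24 subfamilies in KO and in WT), 6 had 1 library far from the other 3 in CPM. The cut is one that about 1 in 20 groups of independent values would pass. Replicates 1 and 4 are alike and the subfamilies share libraries, so that 6 of 48 cannot be set against this rate. In KO replicate 2, RLTR13A2 was at 6.83 CPM (others 9.32 to 9.70), RLTR13A3 at 5.61 (10.9 to 11.9), RLTR13B2 at 3.12 (4.27 to 4.48) and RLTR13C1 at 2.45 (6.46 to 7.15), the lowest of its group each time. RLTR13A1 was at 2.25 CPM in KO replicate 3 (others 0.876 to 1.09), and RLTR13B3 at 8.62 in WT replicate 3 (5.06 to 5.43).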

How the results depend on the processing

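Direction was followed for the called members, the Spc copies with the smallest p and the 2 chosen subfamilies. None of their log2 fold changes changed its direction under an alternative run. The number of members called between KO and WT in Spg was 0 under all of them. In Spc, where 7 were called, it was 4 with no filter beyond 1 count, 4 with the replicate block, 1 with replicates 1 and 4 summed, 5 with DESeq2 size factors, 8 with DESeq2's Wald test, 9 with library totals, and 1 to 8 with 1 library left out. Between the WT stages, where 6 were called, all of them rises, it was 11 with DESeq2's Wald test (10 higher, 1 lower), 2 with library totals (1 and 1), 3 with no filter (2 and 1), 3 with the replicate block, 3 with replicates 1 and 4 summed and 2 to 6 with 1 library left out. Of the copies, 68 in Spc became 42 with a pseudocount of 1, 41 with a mean TPM of at least 0.1, 41 with no filter, 23 with the replicate block, 25 with replicates 1 and 4 averaged and 33 to 68 with 1 library left out, and 0 in Spg became 7 with edgeR on reads. Library totals moved the median of all features from 0.11 to 0.79 in Spc and from 0.06 to -0.72 between the WT stages. With them RLTR13C3 was at 5.06 in Spc, at -1.90 between WT stages and at 3.84 for the difference of stages, and RNERVK23-int at -2.75 between WT stages and at 4.25 for that difference. With 1 library left out, the change between WT stages ran from -1.41 to -0.88 for RLTR13C3 and from -2.24 to -1.85 for RNERVK23-int. For the called members RLTR13D and RLTR13D2 it ran from 2.28 to 4.80 and from 1.17 to 2.37. Under the other settings it fell as low as 0.28 for RLTR13C2, 0.55 for RLTR13E and 0.88 for RLTR13D2. Where the block, filter, scaling or summing changed a count, the cause was not tested. Same-numbered Spc libraries did not pair (correlations 0.0564, 0.188, -0.0316 and 0.105), and in Spg the block changed no call. Depth limits what can be said of single copies, since 310 of 9583 had at least 30 reads.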
